A study of Mus musculus with 32 samples.

Results

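The 9 genes described here mark B cells and the plasma cells that arise from them: Cd79a, Cd79b, Ms4a1, Cr2, Blk, Pax5, Cd22, Jchain and Mzb1. They were found by matching the RefSeq accession of each probe to mouse gene symbols, and they are 9 of 20145 genes named in this way on the array. Where a gene had more than 1 probe (Cr2 and Pax5), the probe with the highest mean over all arrays was used and the other is given beside it. Values are log2 of the background-subtracted signal minus the 75th percentile of the same array, so 0 is the level of the probe at that percentile. Brightness differs between probes for reasons other than RNA amount, so levels are compared between samples of a gene and not between genes.

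RNA was measured on 32 single-colour arrays from tumours of 4T1-Luc, a mouse mammary carcinoma line with a luciferase gene, implanted orthotopically into Balb/C mice, all females aged 8 weeks. Once tumours had grown for a week, mice were given either sunitinib at 40 mg/kg, which blocks receptor tyrosine kinases such as those for VEGF and PDGF, or its vehicle. At a tumour size of 1300 mm3, a fraction selected with beads against the endothelial protein PECAM-1 (EC fraction) and the digested tissue left after that selection (bulk) were taken from 4 sunitinib mice whose label reads sensitive until day 8, 4 whose label reads resistant, and 4 vehicle mice. Smaller tumours gave bulk only, with 2 sunitinib mice and 2 vehicle mice at day 9 and as many at 600 mm3.

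In bulk tissue RNA, and in a bead-selected fraction, fewer cells of a type and less RNA per cell cannot be told apart. B cells sense antigen through the B cell receptor, a surface immunoglobulin that signals through the paired chains encoded by Cd79a and Cd79b. Once activated, some become plasma cells, which switch off Pax5 and much of the B cell surface programme and secrete antibody. In tumours, B lineage cells may lie scattered or gather in follicle-like aggregates.

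The arrays lay on 4 slides, which limits several comparisons. All 8 arrays of resistant mice were on a slide of their own, so resistance and slide cannot be told apart, and the smaller tumours were together on another. The share of probes well above background, as called by the scanner software, was 46.1% to 52.9% on the EC arrays of resistant mice, against 79.9% to 86.4% in sensitive mice and 80.3% to 82.2% in vehicle mice. It was 55.3%, 57.5% and 58.8% in bulk of resistant mice 4, 3 and 1 but 83.5% in resistant mouse 2, whose bulk array stands apart. Bulk of sensitive mice had 69.9% to 82.4%, and bulk of vehicle mice 65.7% to 70.2%. Of 12 endothelial marker genes 11 were higher in the EC fraction than in bulk, and 10 of 10 tumour epithelial markers were lower.

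Detection of the 9 genes varied widely. Cd79b and Cd22 were well above background on 32 of 32 arrays, Jchain, Mzb1 and Cr2 on 29 each, Cd79a on 28, Blk on 25, Pax5 on 21 and Ms4a1 on 18.

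**Figure D1:**
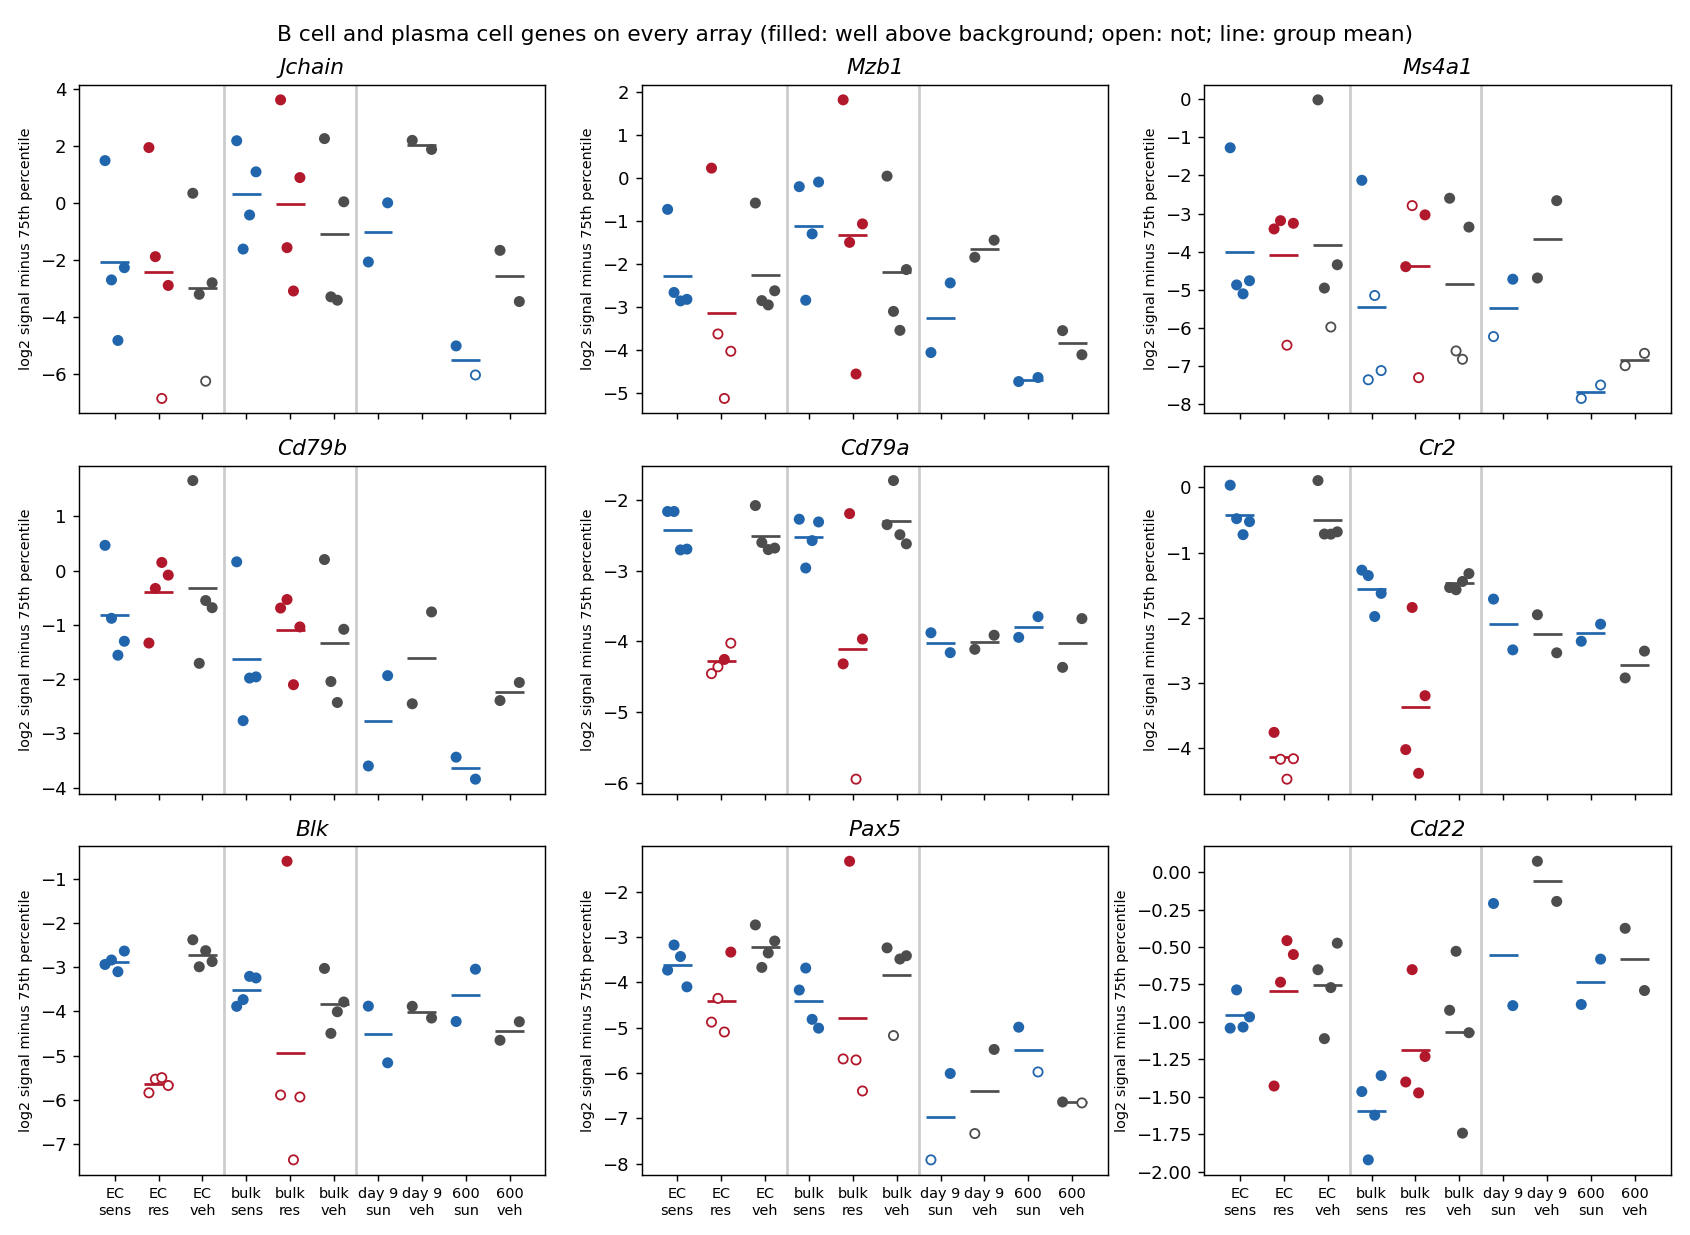
Level of each of the 9 genes on each of the 32 arrays (y axis: log2 signal minus the array's 75th percentile; x axis: EC and bulk fractions at 1300 mm3, and bulk at day 9 and 600 mm3, of sensitive, resistant, sunitinib and vehicle mice). Filled points are well above background, open points are not, and lines are group means; Jchain spans 10.5 units over the arrays, and Cr2 and Blk lie low on most arrays of resistant mice.

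Jchain encodes the joining chain that links antibody monomers into IgM pentamers and IgA dimers, and it is among the genes most strongly used by plasma cells. Its level ranged from -6.88 to 3.63, a range of 10.5 log2 units over 32 arrays. In the EC fraction it was 1.49, -2.71, -4.84 and -2.27 in sensitive mice 2 to 5, 1.95, -1.89, -6.88 and -2.90 in resistant mice 1 to 4, and 0.34, -3.21, -6.27 and -2.81 in vehicle mice 2 to 5. Each of these groups thus held 1 mouse with a high level, 1 with a very low one and 2 between, and the groups overlapped almost completely.

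In bulk, Jchain was 2.19, -1.62, -0.42 and 1.10 in the same sensitive mice, 3.63, -1.57, -3.10 and 0.90 in the resistant mice, and 2.27, -3.30, -3.42 and 0.04 in the vehicle mice. The mice that were high in the EC fraction, sensitive mouse 2, resistant mouse 1 and vehicle mouse 2, were also the highest of their groups in bulk. The SD within groups, pooled over the 10 groups, was 2.56 for Jchain, higher than that of 99.99% of the 16701 named genes well above background on at least 16 arrays, whose median was 0.387.

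Mzb1, an endoplasmic reticulum chaperone that assists antibody assembly in marginal zone B cells and plasma cells, varied in the same way. Its EC level was -0.73 in sensitive mouse 2 and -2.86 to -2.66 in the other sensitive mice, 0.23 in resistant mouse 1 and -5.12 to -3.62 in the other resistant mice, and -0.58 in vehicle mouse 2 and -2.95 to -2.62 in the other vehicle mice. In bulk it was -0.20, -2.84, -1.30 and -0.09 in sensitive mice, 1.82, -1.50, -4.55 and -1.07 in resistant mice, and 0.04, -3.10, -3.54 and -2.13 in vehicle mice. Jchain and Mzb1 correlated over the 32 arrays at r = 0.86, and at r = 0.90 after each group's mean was subtracted. These correlations are over arrays that share mice and slides and are given as descriptions.

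The gene with the pattern most like the mean of Jchain and Mzb1, among named genes outside the 9, was Pou2af1, which encodes the B cell coactivator OBF-1. Its r with that mean was 0.86 over 32 arrays and 0.96 after subtracting group means. The next 4 after subtracting group means were Atp6v1c2 (r = 0.79), Wfdc18 (0.75), Alox12e (0.75) and Hid1 (0.75). With plain values the next 4 were Bdh1 (0.71), Ikzf4 (0.70), Tnfsf11 (0.70) and Gpr174 (0.67). Pou2af1 itself was -0.44 in EC of sensitive mouse 2, against -2.82 to -2.43 in the other sensitive mice, and 0.53 in EC of vehicle mouse 2, against -3.06 to -2.54 in the other vehicle mice.

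Because Jchain and Pou2af1 varied together, their start regions are shown, from 250 bases before to 50 after the annotated start (RefSeq sequences, build GRCm38.p6, 5′ to 3′ on the gene's strand). The Jchain window is chr5:88527848-88528147 on the minus strand and the Pou2af1 window is chr9:51213440-51213739 on the plus strand. Capitals mark matches, on either strand, to any of 5 short motifs: the octamer ATGCAAAT bound by the OCT factors that OBF-1 works with, the palindrome of EBF factors, the E2A E-box CAGGTG, the PU box core GAGGAA and TATAAA.
Jchain: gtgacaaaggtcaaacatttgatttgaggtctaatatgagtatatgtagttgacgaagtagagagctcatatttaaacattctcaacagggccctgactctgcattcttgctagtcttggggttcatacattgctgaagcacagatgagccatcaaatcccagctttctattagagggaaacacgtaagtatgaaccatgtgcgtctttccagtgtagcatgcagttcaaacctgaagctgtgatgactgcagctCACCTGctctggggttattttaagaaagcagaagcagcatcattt
Pou2af1: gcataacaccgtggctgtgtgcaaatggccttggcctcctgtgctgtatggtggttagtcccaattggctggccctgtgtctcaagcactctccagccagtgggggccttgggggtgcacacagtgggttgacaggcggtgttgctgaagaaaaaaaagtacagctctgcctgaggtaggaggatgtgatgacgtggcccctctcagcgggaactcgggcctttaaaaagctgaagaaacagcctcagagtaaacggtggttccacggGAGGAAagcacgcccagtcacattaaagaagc

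The Jchain window holds an E-box just inside the transcript, on the opposite strand, and the Pou2af1 window a PU box core just inside the transcript. Of 32851 mouse start windows of this length, 20.2% hold the E-box, 28.3% the PU box core, 13.6% TATAAA, 1.74% the octamer and 0.904% the EBF palindrome. No exact octamer was found in either window, which says only that these letters are not within it.

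Ms4a1 encodes CD20, a surface protein of B cells that plasma cells lose. In the EC fraction it was -1.27, -4.87, -5.11 and -4.76 in sensitive mice 2 to 5, -3.40, -3.19, -6.45 and -3.26 in resistant mice 1 to 4, and -0.02, -4.95, -5.98 and -4.34 in vehicle mice 2 to 5. In bulk it was well above background in sensitive mouse 2 at -2.13, in resistant mice 1 and 4 at -4.39 and -3.03, and in vehicle mice 2 and 5 at -2.60 and -3.35, and on no other bulk array at 1300 mm3. Sensitive mouse 2 and vehicle mouse 2 were thus high in both fractions, as for Jchain, but resistant mouse 1, the highest for Jchain, was not set apart by Ms4a1. Its SD within groups was 1.98, higher than that of 99.9% of genes.

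Cd79b encodes a signalling chain of the B cell receptor. Its EC level was 0.46, -0.88, -1.56 and -1.30 in sensitive mice, -1.34, -0.33, 0.15 and -0.08 in resistant mice, and 1.66, -1.71, -0.55 and -0.68 in vehicle mice. In bulk it was 0.16, -2.76, -1.98 and -1.96 in sensitive mice, -0.69, -0.53, -2.10 and -1.04 in resistant mice, and 0.20, -2.04, -2.43 and -1.08 in vehicle mice. Again sensitive mouse 2 and vehicle mouse 2 had the highest level of their groups in both fractions. Cd79b and Ms4a1 correlated at r = 0.81 over the 32 arrays, and at r = 0.80 after group means were subtracted.

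Whether a mouse with a high level in bulk also had a high level in the EC fraction was tested over the 12 mice at 1300 mm3, by permuting mice (100000 permutations, two-sided, adjusted by Benjamini-Hochberg over the 9 genes). For Jchain Pearson's r was 0.840 (adjusted permutation p = 0.00288) and Spearman's rho was 0.804 (adjusted permutation p = 0.00828). For Ms4a1 r was 0.825 (adjusted permutation p = 0.00288) and rho was 0.846 (adjusted permutation p = 0.00828). Both held without the 2 mice farthest from the median bulk value, at r = 0.730 and 0.802. On the slides of sensitive and vehicle mice alone (8 mice) r was 0.806 for Jchain and 0.819 for Ms4a1. The EC and bulk arrays of each of these 8 mice lay at the same row and column of their slides. Sensitive and vehicle mice of the same number also shared a column. Mouse and array position thus cannot be told apart in these 8 mice, which limits the values over 12 mice as well. The resistant slide, with 4 mice, holds too few for a value of its own.

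Mzb1 gave r = 0.763 (adjusted permutation p = 0.0102), but rho = 0.636 (adjusted permutation p = 0.067), and r fell to 0.450 without resistant mice 1 and 3, although it was 0.669 in the 8 sensitive and vehicle mice. Cd79b gave r = 0.619 (adjusted permutation p = 0.052), with 0.169 once vehicle mouse 2 and sensitive mouse 2 were left out. With the treatment means subtracted in each fraction, r over 12 mice was 0.84 for Jchain, 0.86 for Mzb1, 0.85 for Ms4a1 and 0.61 for Cd79b. The values of Cd79a, Cr2 and Blk fell into separate clusters of resistant and other mice, so r is given within the 8 sensitive and vehicle mice only, where it was -0.16, 0.35 and 0.42. In those 8 mice Pax5 had r = 0.81 and Cd22 -0.03. Over all 12 mice the adjusted permutation p was 0.416 for Pax5 and 0.899 for Cd22.

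**Figure D2:**
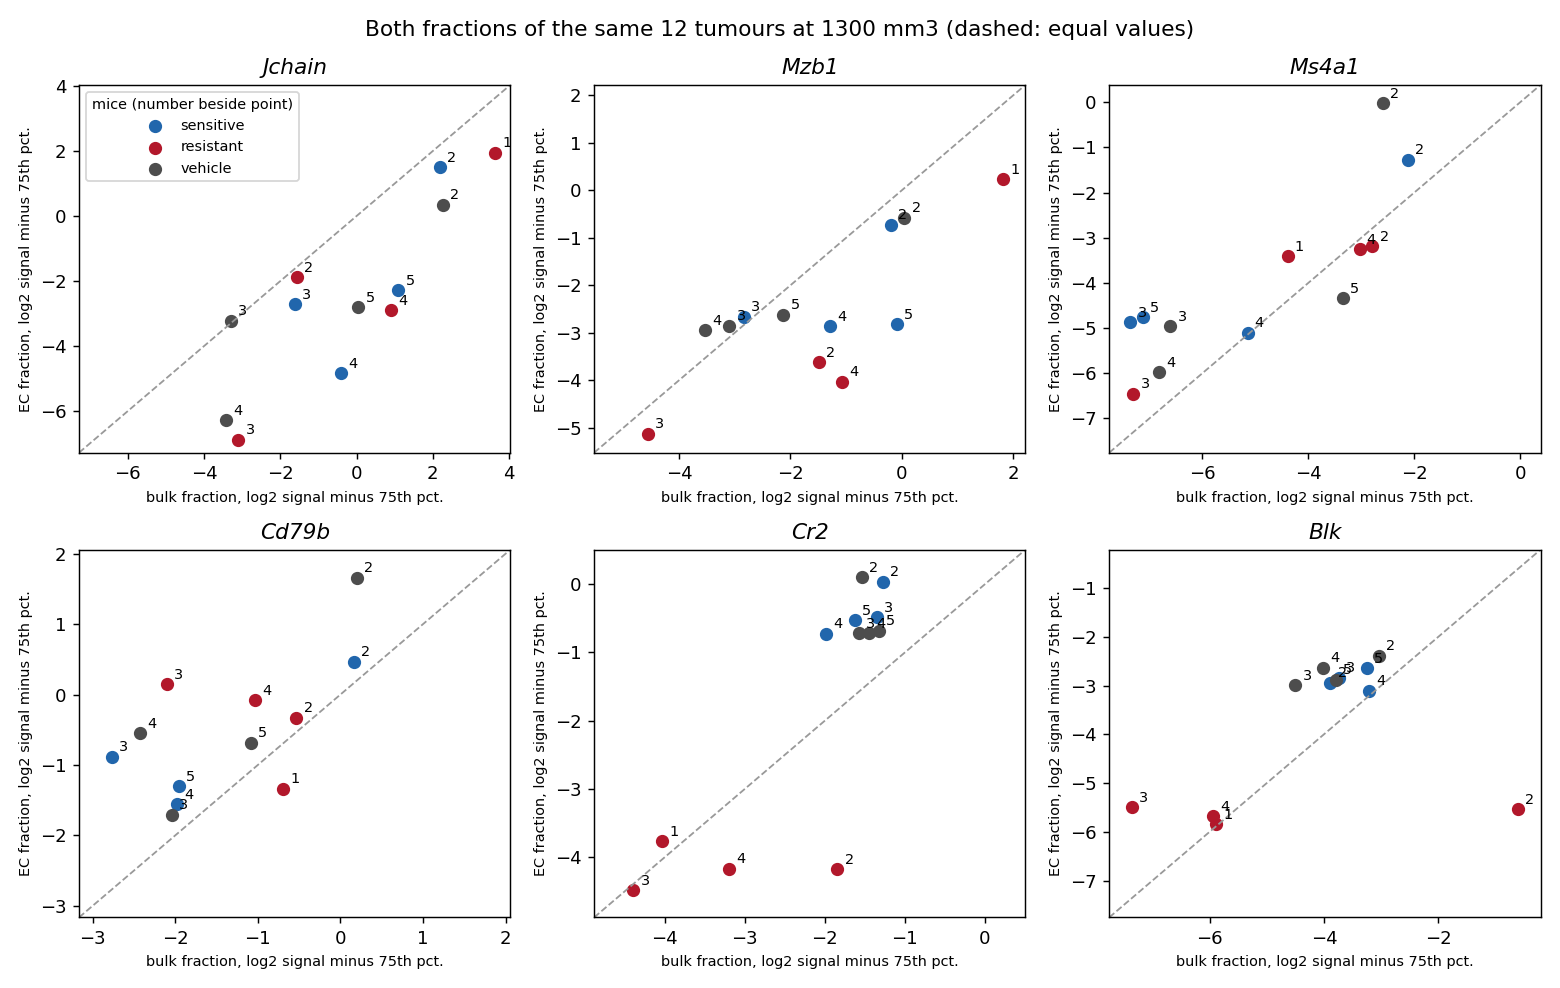
EC level (y axis) against bulk level (x axis) of the same tumour, both as log2 signal minus the 75th percentile, for 6 genes in 12 mice at 1300 mm3; colours give the treatment, numbers the mouse, and the dashed line equal values. Jchain and Ms4a1 rise together in both fractions (r = 0.840 and 0.825), while Cr2 and Blk separate resistant mice from the others, with resistant mouse 2 apart in bulk.

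Other immune genes varied with these mice. After subtracting group means, the mean level of 20 other B cell genes correlated with Ms4a1 at r = 0.82 and with Jchain at 0.49 over 32 arrays. The mean of 12 T cell genes did so at 0.53 and 0.56, and that of 14 genes of B cell recruitment, survival and follicles at 0.74 and 0.64. For the mean of 12 plasmacytoid dendritic cell genes r was 0.17 with Ms4a1 and -0.23 with Jchain, and for 14 other plasma cell genes it was 0.18 and 0.19. In EC arrays of vehicle mice the T cell mean ranged from -0.85 to 2.92. Its part in the mouse-to-mouse pattern was not tested.

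The fractions were then compared within the 12 mice. Jchain and Mzb1 were lower in the EC fraction than in the bulk of the same tumours, and 3 B cell surface genes were higher. Jchain averaged -2.50 in EC and -0.27 in bulk, a log2 difference of -2.22 (SE 0.43, 12 mice, limma adjusted p = 0.00228), and it was lower in EC in 11 of 12 mice. Mzb1 averaged -2.55 in EC and -1.54 in bulk, a difference of -1.01 (SE 0.27, limma adjusted p = 0.0129), and was lower in EC in 9 of 12 mice. Pou2af1, the gene most like them in pattern, did not share this, at 0.02 over the 12 mice (limma adjusted p = 0.952). It stood at 1.42 in vehicle, -0.09 in sensitive and -1.26 in resistant mice (limma adjusted p = 0.0245, 0.916 and 0.0377). Pou2af1 was not well above background in bulk of vehicle mice 3 and 4. The same held in EC of resistant mice 2, 3 and 4 and in bulk of resistant mice 2 and 3. Its differences in vehicle and resistant mice thus rest partly on signals near background.

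Cd79b averaged -0.51 in EC and -1.36 in bulk, a difference of 0.84 (SE 0.26, limma adjusted p = 0.0248), and was higher in EC in 11 of 12 mice. Ms4a1 averaged -3.97 in EC and -4.89 in bulk, a difference of 0.92 (SE 0.32, limma adjusted p = 0.0429), higher in 9 of 12 mice. Ms4a1 was well above background on 10 of 12 EC arrays but only 5 of 12 bulk arrays, so the size of its difference is set largely by signals near background. Cd22, an inhibitory lectin of B cells, averaged -0.83 in EC and -1.28 in bulk, a difference of 0.45 (SE 0.16, limma adjusted p = 0.0477), also higher in 9 of 12. So 5 of 9 genes passed, where 34.6% of all 42211 genes and unnamed probes did (18% higher and 16.7% lower). The median difference of the 9 was 0.44, against 0.04 over everything tested.

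Cr2, Blk, Pax5 and Cd79a did not pass, at 0.44, 0.35, 0.60 and -0.10. With resistant mouse 2 left out, Cr2 was 0.61, Blk 0.82 and Pax5 0.98 (limma adjusted p = 0.0027, 0.0019 and 0.0035), and 8 of 9 genes passed, where 58.9% of everything tested passed in that fit. The calls of Jchain and Mzb1 held with any of the 12 mice left out. That of Cd79b was lost without sensitive mouse 3, resistant mouse 4, vehicle mouse 2 or vehicle mouse 4. Those of Ms4a1 and Cd22 were lost in 9 of 12 such fits each. EC and bulk shared a slide only in resistant mice, where Mzb1 differed by -1.81 (SE 0.46, limma adjusted p = 0.0266) and Jchain by -2.39 (SE 0.75, limma adjusted p = 0.0568), with the spread taken from all mice. Mzb1 was well above background on 1 of 4 EC arrays and 4 of 4 bulk arrays of resistant mice. The size of its difference there, and with slide as a block, is thus set largely by EC signals near background. On that slide EC and bulk arrays lay in different columns, so that fraction and position cannot be told apart. With slide as a block, which leaves the resistant mice to set the difference, only Jchain and Mzb1 passed, with Ms4a1 at 0.31, Cd79b at 0.69, Cd22 at 0.40, Blk at -0.69 and Cr2 at -0.78.

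Within sensitive mice Jchain (-2.39) and Cr2 (1.13, its other probe -0.12) passed, 2 of 9 where 18.6% did (9.46% higher and 9.14% lower), and each call held in only 3 of the 12 fits that left out a mouse. Within resistant mice Mzb1 alone passed, 1 of 9 where 13.7% did and 6.78% were lower, and not without resistant mouse 4 (-1.43, limma adjusted p = 0.123). Within vehicle mice limma called 0 of 9, where 14.2% of everything tested passed. An unadjusted p under 0.05 was reached by 3 of 9 genes and by 12688 of 42211 features. Whether the difference between fractions itself differed by treatment was tested as an interaction. Limma called 0 of 9 for sensitive against vehicle mice, where it called 0% of features. An unadjusted p under 0.05 was reached there by 0 of 9 genes and 1384 of 42211 features. It called 0 of 9 for resistant against vehicle mice, where it called 0.299% of features. There 2 of 9 genes (Cr2 -1.75 and Mzb1 -1.74) and 7117 of 42211 features had an unadjusted p under 0.05.

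Genes around these 9 were read from lists of known roles. Of 20 genes of B cell receptor signalling, 16 were higher and 1 was lower in EC than in bulk, with a median of 1.26, led by the phosphatase Inpp5d (1.83), the exchange factor Rasgrp3 (4.35) and the adaptor Blnk (2.68). Macrophages and endothelium also use many of these genes, and 9 of 9 macrophage genes were higher in EC as well, with a median of 2.21. Of 21 other B cell genes, 9 were higher and 2 lower, among them Cd72 (2.50), Ebf1 (1.88) and Bank1 (1.67). Of 15 genes of recruitment, survival and follicles, 6 were higher and 6 lower, with the B cell chemokine Cxcl13 at 2.77, Cxcl12 at 4.30 and the mucin-like Glycam1 of high endothelial venules at 6.40.

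Of 15 other plasma cell genes, 3 were higher and 5 lower in EC: Prdm1, the plasma cell master regulator also used by other cells, at 2.06, the syndecan Sdc1, also an epithelial gene, at -1.28, and Txndc5 at -1.05. T cell genes were lower in EC in 10 of 12 cases, with Cd8a at -2.52 and Cd8b1 at -2.14. Of 12 plasmacytoid dendritic cell genes, 4 were higher and 2 lower. The parts of these cell types in the differences of the 9 genes were not tested.

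**Figure D3:**
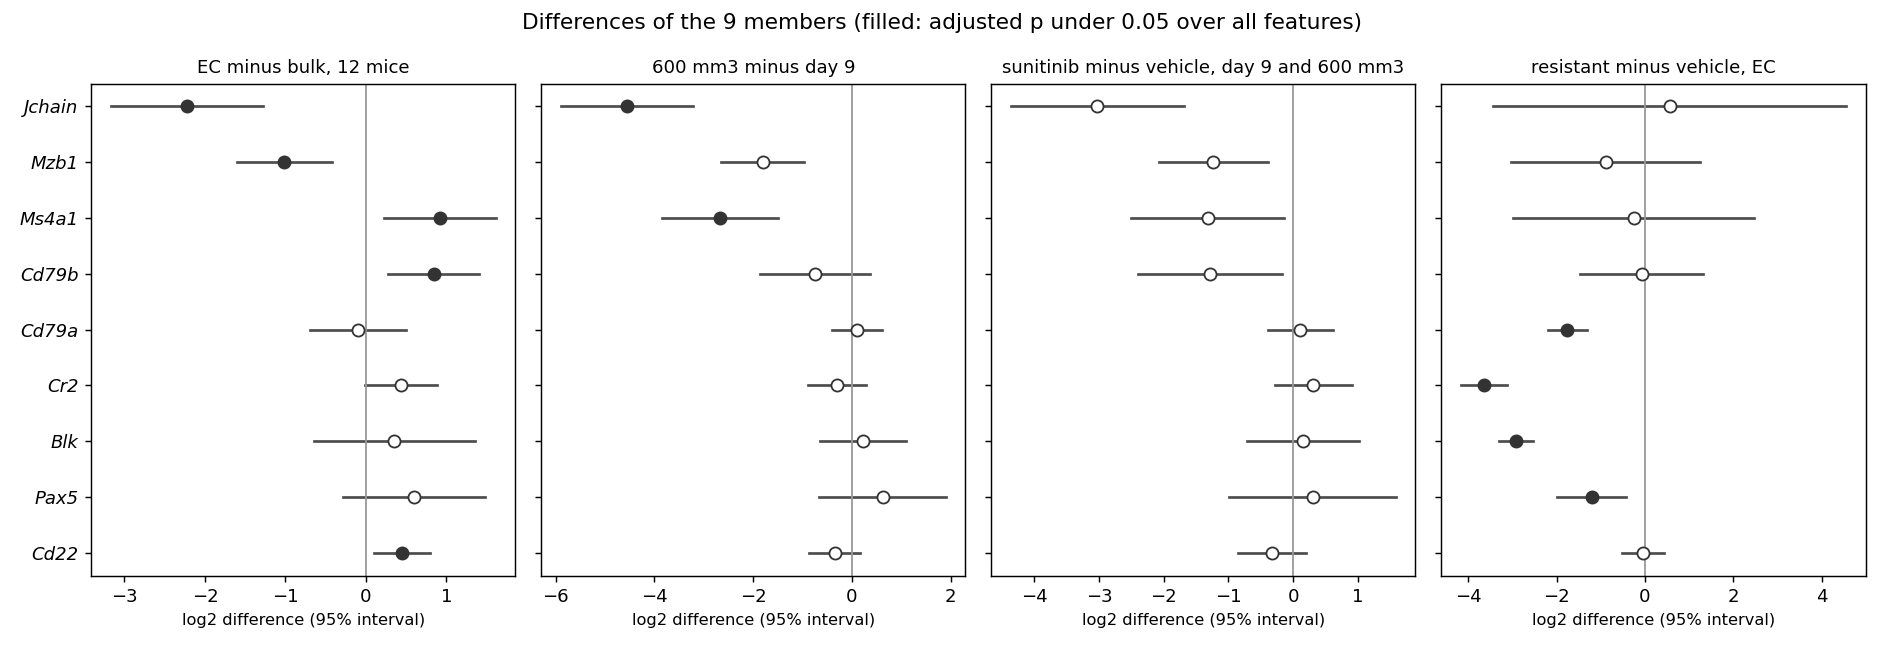
Log2 differences of the 9 genes with 95% intervals (x axis) for EC minus bulk in 12 mice, 600 mm3 minus day 9, sunitinib minus vehicle in the smaller tumours, and resistant minus vehicle in EC. Filled points passed at an adjusted p under 0.05 over everything tested: Jchain and Mzb1 lie below 0 in the first panel, and Cr2, Blk, Cd79a and Pax5 below 0 in the last. Blk was well above background on no EC array of resistant mice, so its point in the last panel is a description.

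Sunitinib and vehicle mice were compared first at 1300 mm3. In sensitive mice limma called 0 of 9 genes against vehicle in the EC fraction and 0 of 9 in bulk, where it called 0% of 40712 and 0% of 37012 features. None of the 9 had an unadjusted p under 0.05 in either fraction, where 1471 and 1717 features did. Jchain stood at 0.91 in EC (95% interval -3.09 to 4.90) and 1.41 in bulk (-2.19 to 5.02), so that large differences in either direction lie within the intervals. Cr2 was measured more closely, at 0.08 in EC (-0.45 to 0.60) and -0.09 in bulk (-1.11 to 0.93). The other 7 genes stood between -0.50 (Cd79b) and 0.08 (Cd79a) in EC and between -0.59 (Ms4a1) and 1.07 (Mzb1) in bulk.

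In resistant mice 4 genes, with Blk counted, were lower than in vehicle mice in the EC fraction, beside 58.6% of all 40712 features called and 43.1% called lower. Cr2 encodes the complement receptor CD21 of mature B cells and follicular dendritic cells. It was -3.76, -4.18, -4.48 and -4.17 in resistant mice 1 to 4, against 0.11, -0.72, -0.72 and -0.68 in vehicle mice 2 to 5, a difference of -3.64 (SE 0.24, 4 against 4), and was well above background on 1 resistant array. The groups did not overlap. Its other probe gave -2.81 (SE 0.49).

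Blk, a Src family kinase of B cells, was -5.84, -5.54, -5.50 and -5.68 in EC of resistant mice, against -2.38, -2.99, -2.63 and -2.88 in vehicle mice. It was well above background on no EC array of resistant mice, and met the detection filter through the sensitive and vehicle arrays only, so its call is given as a description. With the scaling used here it was at least 2.78-fold lower in resistant mice, measured against the lowest signals called above background. Some other ways of processing, given below, gave smaller differences than that bound. Cd79a, the partner chain of Cd79b, was -4.45 to -4.02 in resistant mice and -2.70 to -2.08 in vehicle mice, a difference of -1.76 (SE 0.20), with 1 of the 4 resistant arrays well above background. Pax5, the transcription factor that holds B cell identity, fell by 1.20 (SE 0.36, limma adjusted p = 0.0119), and its other probe by 1.54, and it too was well above background on 1 resistant array.

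The same 3 genes Cr2, Cd79a and Blk were lower in resistant than in sensitive mice, at -3.72, -1.84 and at least 2.49-fold. With Blk counted, its call again as a description, 3 of 9 passed, where 58.9% of features passed and 43.6% were lower. These differences moved with the share of detected probes, and their size depended on how the signal was scaled. Against vehicle, median differences over all features were -0.47 as reported, -0.06 with quantile scaling, 0.28 with normexp, -0.03 in the deposited values and -0.82 with the percentile taken over probes detected on all arrays. With that percentile Cr2 stood at -4.00, Blk at -3.27, Cd79a at -2.11 and Pax5 at -1.56, all called. Under quantile scaling, normexp and the deposited values, in this order, Cr2 kept its call against vehicle, at -2.79, -1.83 and -2.24, while Cd79a stood at -0.45, -0.14 and -0.23 and passed in none. Blk was -1.53, -0.20 and -0.96, without a call under normexp, and Pax5 turned to 0.21, 0.21 and 0.23. Against sensitive mice Cr2 passed in all 3 of these and Cd79a with quantile scaling only (-0.57, with -0.26 and -0.33 in the others). Against vehicle Jchain, Mzb1, Ms4a1, Cd79b and Cd22 did not pass, at 0.56, -0.89, -0.25, -0.08 and -0.04.

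**Figure D4:**
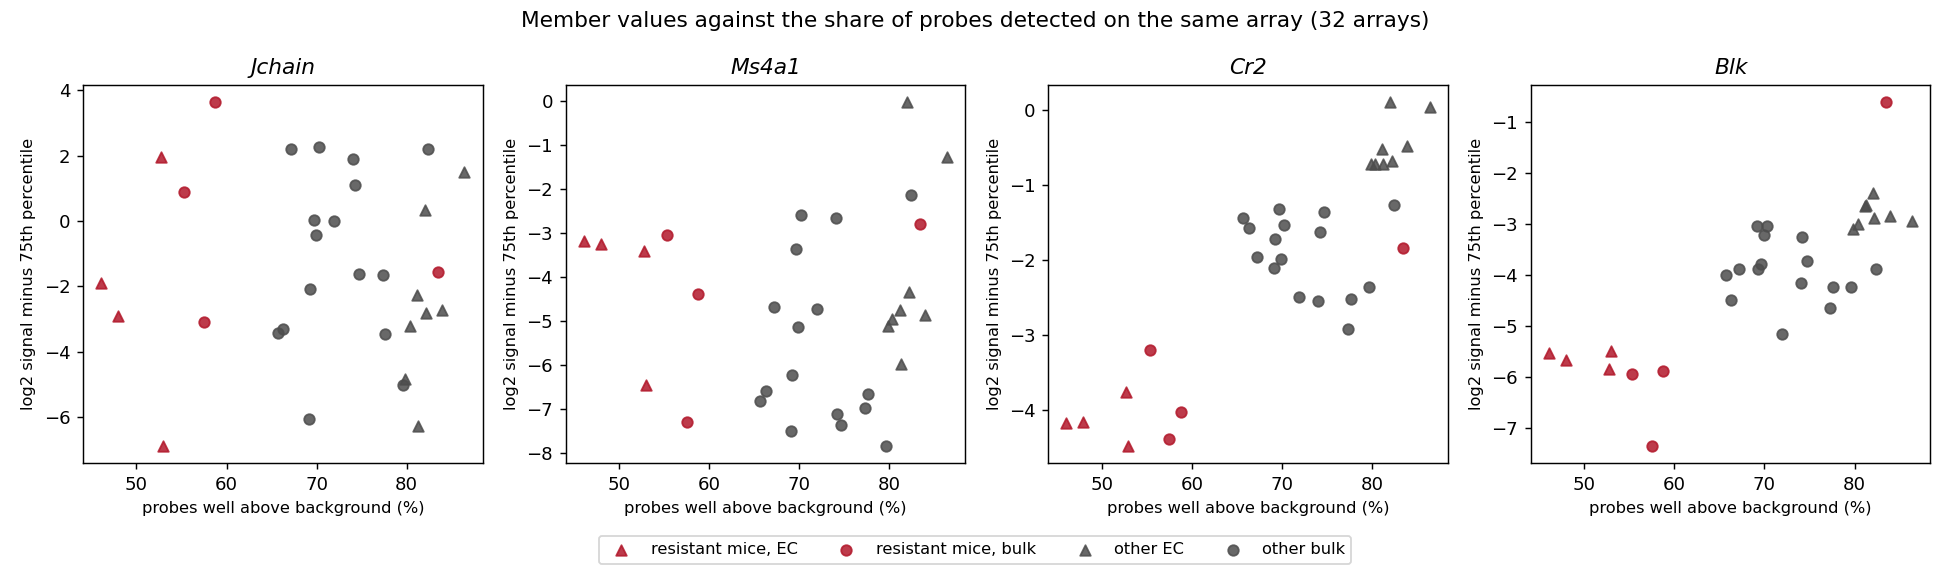
Level of Jchain, Ms4a1, Cr2 and Blk (y axis: log2 signal minus the 75th percentile) against the percentage of probes well above background on the same array (x axis), for 32 arrays; red symbols are resistant mice, triangles EC and circles bulk. Cr2 and Blk lie low on the 7 arrays of resistant mice with 46.1% to 58.8% of probes detected, and Blk is at -0.61 on the bulk array with 83.5%. On those 7 arrays Jchain spans -6.88 to 3.63 and Ms4a1 -7.30 to -3.03. The highest Ms4a1 values, -0.02 and -1.27, lie on arrays with 82.0% and 86.4%.

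In bulk, Cr2 was lower in resistant than in vehicle mice by 1.90 (SE 0.46, limma adjusted p = 0.0225), 1 of 9 where 11.6% of features passed and 9.88% were lower. It was -4.03, -1.84, -4.39 and -3.20 in resistant mice 1 to 4 and -1.54, -1.57, -1.44 and -1.32 in vehicle mice. Cr2 was also lower than in sensitive mice, at -1.81 (limma adjusted p = 0.0225), again 1 of 9 where 16.3% passed and 13.4% were lower. The other Cr2 probe gave -0.84 and -1.46 (limma adjusted p = 0.624 and 0.302). Against vehicle the call was lost without resistant mouse 1, 3 or 4 or vehicle mouse 2, 4 or 5, and against sensitive mice without resistant mouse 1 or 3 or sensitive mouse 2, 3 or 5.

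Resistant mouse 2 decided the rest. Its bulk array had Blk at -0.61, against -5.89, -7.36 and -5.94 in the other resistant mice and -4.50 to -3.03 in vehicle mice. Pax5 was -1.33 there, against -6.40 to -5.69, and -0.85 by its other probe, against -7.55 to -6.48. Cd79a was -2.19, against -5.94 to -3.96. The EC array of the same mouse showed none of this, with Blk at -5.54 and Pax5 at -4.36, both not well above background. Jchain at -1.57 and Mzb1 at -1.50 lay within the range of the other resistant mice, and Cd79b at -0.53 lay just above theirs of -2.10 to -0.69. Without that array 4 of 9 genes were lower in resistant bulk than in vehicle bulk, where 46% of all features passed and 37.1% were lower in the same fit. Cd79a stood at -2.45 and Cr2 at -2.40, while Blk and Pax5, well above background on none of the 3 arrays left, were at least 2.93-fold and at least 2.94-fold lower with this scaling. The calls of Blk and Pax5 in that fit are given as a description.

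In the smaller bulk tumours, Jchain at day 9 was -2.07 and 0.01 in sunitinib mice and 2.21 and 1.89 in vehicle mice. At 600 mm3 it was -5.03 and -6.05 in sunitinib mice and -1.67 and -3.47 in vehicle mice. Both stages thus had lower Jchain values in sunitinib mice. With 2 mice against 2, lack of overlap carries little weight. At 600 mm3 Mzb1, Cd79b and Ms4a1 were also lower in sunitinib mice without overlap, but Cr2, Blk and Pax5 were higher without overlap. Averaged over stages the Jchain difference was -3.03 (SE 0.57, 4 against 4), which did not pass over all features (limma adjusted p = 0.285, unadjusted 0.001). It stood at -3.08 at day 9 and -2.97 at 600 mm3 (limma adjusted p = 0.554 and 0.229).

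Mzb1 differed in the same comparison by -1.23 (SE 0.36, limma adjusted p = 0.459), with -4.06 and -2.44 in sunitinib mice against -1.84 and -1.44 in vehicle mice at day 9, and -4.73 and -4.64 against -3.55 and -4.11 at 600 mm3. Cd79b differed by -1.28 (SE 0.48, limma adjusted p = 0.612) and Ms4a1, not well above background at 600 mm3, by -1.32 (SE 0.50, limma adjusted p = 0.630). Cd22 stood at -0.32, Cr2 at 0.32, Pax5 at 0.31, Blk at 0.15 and Cd79a at 0.11. Limma called 0 of 9 genes, as it called 0% of 38950 features, while 4 of 9 genes and 2769 features had an unadjusted p under 0.05. It also called 0 of 9 at day 9, where it called 0.00257% of features, and 0 of 9 at 600 mm3, where it called 0.288%. An unadjusted p under 0.05 was reached by 3 of 9 genes and 3008 features at day 9. At 600 mm3 it was reached by 1 of 9 genes and 4262 features. Sunitinib and vehicle arrays lay in different rows of the slide, so that row and treatment cannot be told apart.

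Around the 9 genes, at 600 mm3, 1 of 21 other B cell genes passed between sunitinib and vehicle mice, Cd72 at -4.62 (SE 0.34, limma adjusted p = 0.01). The B cell survival factor Tnfsf13b (BAFF) was the only gene of 14 for recruitment, survival and follicles that passed, at -2.61 (SE 0.34, limma adjusted p = 0.0476), and Blnk the only one of 20 for receptor signalling, at -3.15 (SE 0.38, limma adjusted p = 0.0396). Median differences of the other lists were -1.60 for macrophage, -1.31 for T cell and -1.96 for endothelial genes, of which 0, 0 and 1 passed. Their part in the values of the 9 genes was not tested.

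Tumours at 600 mm3 had less Jchain than tumours at day 9, over both treatments, and Ms4a1 was not well above background at 600 mm3. Jchain averaged -4.05 at 600 mm3 and 0.51 at day 9, a difference of -4.56 (SE 0.57, 4 against 4, limma adjusted p = 0.0174). Ms4a1 was well above background on no array at 600 mm3, and on 1 of 2 sunitinib and 2 of 2 vehicle arrays at day 9. It met the detection filter of this fit through day 9 only, so its call is given as a description. At day 9 it was -6.23 and -4.72 in sunitinib mice and -4.69 and -2.66 in vehicle mice. With this scaling it was at least 3.42-fold lower at 600 mm3 (limma adjusted p = 0.0457). With Ms4a1 counted, 2 of 9 genes passed, where 2.47% of 38950 features passed and 1.49% were lower. Mzb1 stood at -1.81 (SE 0.36, limma adjusted p = 0.0524) and Cd79b at -0.75, and Cd22, Cr2, Cd79a, Blk and Pax5 lay between -0.35 and 0.62.

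The Jchain call was lost without day 9 vehicle mouse 2, either 600 mm3 sunitinib mouse or 600 mm3 vehicle mouse 4 (at -4.81 to -4.11), and the Ms4a1 call in 6 of 8 such fits. Stage also went with position on the slide, which cannot be told apart from it. Of 15 other plasma cell genes 2 fell, Sdc1 at -1.22 and Sec11c at -0.99, and none rose. Of 21 other B cell genes Vpreb3 fell (-1.10) and Ralgps2 rose (1.69).

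Bulk at 1300 mm3 was also set beside the smaller tumours of the same treatment, on other slides. In sensitive sunitinib mice Cd22 was -1.47, -1.92, -1.62 and -1.36 at 1300 mm3, against -0.21, -0.89, -0.88 and -0.58 in the smaller tumours, a difference of -0.95 (SE 0.28, limma adjusted p = 0.0382). It was the only 1 of 9 genes called there, where 11.3% of features passed and 4.66% were lower, and that call was lost in 8 of 20 fits that left out an array, all 4 sensitive mice at 1300 mm3 among them. The other 8 genes stood above 0 without passing, with a median of 1.38 over the 9, against 0.36 over all features. Jchain was at 3.60, Mzb1 at 2.86, Pax5 at 1.80, Cd79b at 1.57, Cd79a at 1.38, Cr2 at 0.61 and Blk at 0.56, with Ms4a1 also above 0 (limma adjusted p = 0.100 to 0.729). Ms4a1 was well above background on no array at 600 mm3 and on 1 of 4 sensitive arrays at 1300 mm3, so no size is given for it. Without bulk of resistant mouse 2, which enters through the shared spread, 4 genes passed where 43.2% of features did, Cd22 lower and Mzb1, Cd79a and Pax5 higher. In vehicle mice limma called 0 of 9, where 4.81% passed. An unadjusted p under 0.05 was reached by 9882 of 43485 features and by 4 of 9 genes: Pax5 at 2.70, Cd79a at 1.72, Cr2 at 1.01 and Cd22 at -0.74. The other 5 had a larger p, with Jchain at -0.84 and Mzb1 at 0.55. Without resistant mouse 2 limma called those same 4, where 34.1% of features passed, and without resistant mouse 3 Cd79a alone. Size and slide cannot be told apart in either comparison.

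The 9 genes did not vary as a single block. Cr2, Blk and Cd79a correlated with each other at r = 0.80 to 0.83 over 32 arrays, Jchain with Mzb1 at 0.86, and Cd79b with Ms4a1 at 0.81, while Jchain with Cr2 stood at -0.01. Cr2, Blk and Cd79a were low on the 7 resistant arrays with 46.1% to 58.8% of probes detected (-4.48 to -3.20, -7.36 to -5.50 and -5.94 to -3.96), where Jchain spanned -6.88 to 3.63. Over the 32 arrays the share of probes detected correlated with Cr2 at r = 0.84, with Blk at 0.79 and with Cd79a at 0.63. Pax5 stood at 0.32, and the others lay between -0.05 (Jchain) and 0.11 (Mzb1). Most resistant arrays lie apart in detection, so the values over 32 arrays partly restate that separation. On the 20 bulk arrays alone r was 0.52 for Cr2, 0.67 for Blk and 0.40 for Cd79a. After group means were subtracted, Cr2, Blk and Cd79a correlated with each other at 0.77 to 0.80. That step leaves differences in detection within a group, as in bulk of resistant mice (55.3% to 83.5%). The part of detection in the correlations between genes was not tested. Cd79a and Cd79b, whose products pair in the same receptor, correlated at only 0.28, and at 0.38 after group means were subtracted. The start regions of Cd79a and Cr2, the pair of the first group with a window in the RefSeq table, are shown with the same capitals (Cd79a chr7:24897247-24897546, plus strand; Cr2 chr1:195176670-195176969, minus strand, build GRCm38.p6).
Cd79a: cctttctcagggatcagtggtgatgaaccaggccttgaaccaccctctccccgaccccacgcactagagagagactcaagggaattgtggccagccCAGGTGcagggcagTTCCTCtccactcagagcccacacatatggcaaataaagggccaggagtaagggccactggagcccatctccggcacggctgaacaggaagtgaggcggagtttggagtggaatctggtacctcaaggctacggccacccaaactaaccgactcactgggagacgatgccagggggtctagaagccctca
Cr2: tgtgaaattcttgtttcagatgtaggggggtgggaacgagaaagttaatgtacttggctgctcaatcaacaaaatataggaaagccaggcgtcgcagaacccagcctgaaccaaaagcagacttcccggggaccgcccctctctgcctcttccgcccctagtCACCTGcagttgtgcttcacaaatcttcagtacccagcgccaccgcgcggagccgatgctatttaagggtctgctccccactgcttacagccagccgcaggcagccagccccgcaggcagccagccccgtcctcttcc

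Both windows hold the E-box, which 20.2% of windows hold, 154 bases before the start in Cd79a and 88 before it in Cr2. Cd79a also holds the PU box core on the opposite strand, 140 bases before the start. Cd22 was the only one of the windows examined with the EBF palindrome, which overlaps none of the other motifs there, 49 bases before its start. The mean of the 7 B cell genes other than Jchain and Mzb1 was most like Pabpc4l (r = 0.88), Tmprss7 (0.87), Prg3 (0.87), Ces2c (0.86) and Slc12a8 (0.86) over the 32 arrays. After subtracting group means the 5 most like it were Vmn2r114 (0.89), Mesp2 (0.89), Urad (0.88), Cpne4 (0.88) and Slco1a1 (0.87).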

How the data were processed

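The scanner files hold intensity values, background-subtracted by Agilent Feature Extraction 10.7.3.1, per the file headers, while the submitters' processing notes name version 9.1. A further table from the authors, in intensity units and normalised by a method not given in the sources used here, served as an alternative. Of 59305 spots, 55681 probes remained after averaging replicate spots, and 26582 of them were named through RefSeq accessions (table of build GRCm38.p6). The test was limma (3.58.1, R 4.3.3) on log2 values, with Benjamini-Hochberg adjustment over all features tested and a threshold of 0.05. Features well above background on fewer than 4 arrays (2 in fits with smaller tumours) were left out. The EC and bulk comparison kept the mouse as a block, since both fractions come from 1 tumour. Mouse numbers do not pair animals across treatments (same-numbered mice correlated at -0.35 to 0.32). The normexp alternative used the median signal, since the mean signal is not in the files. Motif matches were counted in RefSeq windows. The fit was tested on simulated data. Replicates are separate mice, and their number limits precision. The 9 genes, the lists and the motifs were chosen with earlier results of these data known. All 9 genes are covered in each comparison, some that did not pass by a range or a count only, and of other lists up to 3 called genes with the smallest p, or 2 values where none was called. Of the genes most like a profile the 5 highest are named. Figures used matplotlib 3.10.9.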

Additional observations from a re-analysis of the deposited data

Results flagged for a closer look

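Of 54 sets of 4 arrays (9 genes in 6 groups), 8 had a mouse far from the other 3, where chance flags about 1 in 20 sets. Sets of the same mouse are not independent. Mouse 2 of the EC vehicle group stood apart in 3 genes: Mzb1 at -0.58 (median of the other mice -2.85), Cr2 at 0.11 (-0.72) and Cd79a at -2.08 (-2.68). Mouse 2 of the EC sensitive group stood apart in Ms4a1 at -1.27 (-4.87) and Mzb1 at -0.73 (-2.82). Resistant mouse 3 was low for Ms4a1 in EC at -6.45 (-3.26), where the probe was not well above background. In bulk, Pax5 was high in resistant mouse 2 at -1.33 (-5.71) and low in vehicle mouse 3 at -5.18 (-3.41), a value not well above background.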

How the results depend on the processing

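Counts are of the 9 genes called. With quantile scaling EC resistant against vehicle gave 2 (4 as reported), bulk resistant against vehicle 2 (1), EC against bulk 1 in sensitive (2) and 0 in resistant mice (1), 600 mm3 against day 9 1 (2), and 1300 mm3 against smaller vehicle tumours 2 (0). With normexp, EC resistant against vehicle and against sensitive gave 1 each, EC against bulk 0 in resistant and 1 in vehicle mice (0), and 1300 mm3 vehicle 2. With the percentile over probes detected on all arrays, both bulk resistant comparisons gave 0 (1 each), EC against bulk 3 in all (5), 0 in sensitive and 2 in resistant mice, and 1300 mm3 sensitive 0 (1). The deposited values gave 2 for EC resistant and 2 for bulk resistant against vehicle, 0 and 1 for EC against bulk in resistant and vehicle mice, and 2 for 1300 mm3 vehicle. Without the filter EC against bulk gave 3 in all and 0 in sensitive mice, and 600 mm3 against day 9 gave 1. The stricter filter gave 2 for EC against bulk in resistant mice, and adjusting over named genes, chosen after seeing the data, also 2. The mean of all probes gave 0 in both bulk resistant comparisons and 1 for EC against bulk in sensitive mice. Pax5 in EC of resistant against vehicle mice turned to 0.21 with quantile scaling, 0.21 with normexp and 0.23 in the deposited values. The cause of these changes was not tested.

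Pairing: with the mouse number as a replicate block, both bulk resistant comparisons gave 0, although numbers name different animals across treatments, and no other count moved by over 1.5 times. Without the replicate block, EC against bulk gave 1 in all (Cd22), 1 in sensitive and 0 in resistant mice. The replicate block could not be fitted for 600 mm3 against day 9, which share no number, nor for 1300 mm3 against smaller tumours, where it was not run. Within the resistant slide alone EC against bulk gave 0 and with slide as a fixed block 2 in all. Slide as a random block was not run, since slide and resistance coincide.

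Leaving out 1 array or mouse at a time, the counts ranged from 4 to 5 for EC resistant against vehicle, 3 to 4 against sensitive, 0 to 4 for each bulk resistant comparison, 2 to 8 for EC against bulk in all, 0 to 2 in sensitive, 0 to 3 in resistant and 0 to 3 in vehicle mice, 0 to 3 for 600 mm3 against day 9, and 0 to 4 for each 1300 mm3 comparison. The highest counts of the bulk resistant, EC against bulk (all, resistant and vehicle) and 1300 mm3 comparisons came without resistant mouse 2. The EC and bulk sensitive comparisons with vehicle, both interactions and the 3 sunitinib comparisons of smaller tumours gave 0 in every fit that left an array out. Signal near background limits Ms4a1, Pax5 and Blk, which were detected on 18, 21 and 25 arrays. It also limits Mzb1 in EC of resistant mice, where it was detected on 1 of 4 arrays.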
